A study of Mus musculus with 68 samples.

Results

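Cytosolic heat shock proteins were followed in mouse embryonic fibroblasts (MEFs) under endoplasmic reticulum (ER) stress, through 10 genes chosen by name. They are Hsf1, Hspa1a, Hspa1b, Hspa8, Hsp90aa1, Hsp90ab1, Hspb1, Dnajb1, Hsph1 and Hspa4, and all 10 were listed and passed the filter on low values in both sets of tables. They are 10 of 13197 genes listed for the founder strains and of 12803 listed for the F1 crosses (13378 in either). MEFs are fibroblasts grown from embryos, and the study asked how genetic background shapes the response to ER stress. The founder cells came from 8 inbred strains, 129S1Sv/ImJ (129), A/J (A), C57BL/6J (B6), CAST/EiJ (CAST), NOD/ShiLtJ (NOD), NZO/H1LtJ (NZO), PWK/PhJ (PWK) and WSB/EiJ (WSB). The F1 cells came from crosses of B6 mothers with 129, CAST, NOD, NZO or WSB fathers (x129, xCAST, xNOD, xNZO and xWSB). Every culture was grown for 4 h with tunicamycin (TM) at 2 ug/ml or with its solvent alone (DMSO at 0.1%, control). TM blocks N-linked glycosylation, so that unfolded proteins gather inside the ER. Each genotype had 2 or 3 libraries per treatment, 68 in all (18 control and 22 TM founder libraries, 14 and 14 from F1 crosses). According to the methods, a genotype's cells were pooled from the female embryos of a single litter, so replicates are cultures of the same pool, and p-values measure the spread between such cultures rather than between litters.

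Heat shock proteins are molecular chaperones of the cytosol and nucleus. Hsp70 proteins bind exposed hydrophobic stretches of unfolded clients in an ATP-driven cycle, in which J-domain proteins such as Dnajb1 start ATP hydrolysis and Hsp110 proteins such as Hsph1 and Hspa4 exchange the nucleotide. Hsp90 acts later, on clients close to their folded state, and small heat shock proteins such as Hspb1 hold unfolding proteins without ATP. When unfolded proteins build up in the cytosol, the transcription factor Hsf1 binds inverted repeats of GAA in the promoters of these genes. Unfolded proteins in the ER act through other sensors and raise the ER's own chaperones, such as Hspa5 (BiP).

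The 250 bases before the start of transcription are shown for the 3 members that fell with TM in the founder strains and, for contrast, for Hspa5 (RefSeq, GRCm38.p6, 5′ to 3′). Capitals mark GAANNTTC in the first 3 and the ER stress element, CCAAT and CCACG with 9 bases of any kind between them, in the last.
Hspa1a (chr17:34972157-34972406, minus strand): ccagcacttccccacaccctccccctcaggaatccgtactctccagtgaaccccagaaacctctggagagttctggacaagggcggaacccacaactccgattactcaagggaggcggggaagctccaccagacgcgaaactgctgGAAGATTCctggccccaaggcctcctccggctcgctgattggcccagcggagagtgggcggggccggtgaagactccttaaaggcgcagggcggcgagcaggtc
Hspa1b (chr17:34959239-34959488, minus strand): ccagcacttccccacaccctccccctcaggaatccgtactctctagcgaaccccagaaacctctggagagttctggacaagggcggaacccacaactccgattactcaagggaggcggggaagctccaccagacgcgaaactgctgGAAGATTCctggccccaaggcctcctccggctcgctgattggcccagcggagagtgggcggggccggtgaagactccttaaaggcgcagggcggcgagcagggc
Hspb1 (chr5:135887669-135887918, plus strand): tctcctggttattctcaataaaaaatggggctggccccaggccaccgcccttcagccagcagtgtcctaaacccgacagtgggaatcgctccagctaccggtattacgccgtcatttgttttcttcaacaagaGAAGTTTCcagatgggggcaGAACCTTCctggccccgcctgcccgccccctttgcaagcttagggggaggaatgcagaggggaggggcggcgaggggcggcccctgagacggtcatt
Hspa5 (chr2:34771840-34772089, plus strand): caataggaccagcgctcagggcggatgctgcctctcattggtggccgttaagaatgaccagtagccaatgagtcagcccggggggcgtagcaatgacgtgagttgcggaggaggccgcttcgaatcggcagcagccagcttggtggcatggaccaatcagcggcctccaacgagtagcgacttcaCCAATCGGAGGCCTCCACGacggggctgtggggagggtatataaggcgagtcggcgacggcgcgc
Hspa1a and Hspa1b differed at 3 of these 250 positions, C44T, T47C and T249G, written with the Hspa1a base first and counted from 1 at the 5′ end. Both carried GAAGATTC, whose first base lies 104 bases before the start. Hspb1 held GAAGTTTC and GAACCTTC, which begin 117 and 97 bases before it. GAANNTTC reads the same on both strands and was present in 6.69% of the 32817 promoter windows of this length, and GAANNTTC or TTCNNGAA in 12.8%. The reference also held windows for Dnajb1, Hsph1 and Hspa4. Of these Hsph1 carried TTCTCGAA, a match to TTCNNGAA, and neither motif was found in the Dnajb1 or Hspa4 windows. The ER stress element, searched on both strands, was in 0.113% of all windows and in no member's window. It was in those of Hspa5 and of Hsp90b1, the Hsp90 of the ER. A longer match was searched as well, the motif marked in the first 3 genes followed by another GAA at the same spacing. It was in 0.466% of all windows and in no member's window. Whether Hsf1 binds the shorter matches was not tested. No promoter sequence of Hsf1, Hspa8, Hsp90aa1 or Hsp90ab1 was used.

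Values are reads per gene scaled by the authors to the normalized library size (on the scale of CPM) and are not divided by gene length. Library depth was 7091923 to 21530282 reads on genes in the founder set and 6442976 to 29528457 in the F1 set, and the median was lower in TM (10730220 against 14072068 in founder controls). All 10 fibroblast markers were listed and summed to 17207 to 53114 in founder controls and 14199 to 43202 with TM, led by Vim and Col1a1. Not every marker was high, and over the founder libraries Lum was 0.343 to 7.32 and Thy1 as low as 1.38. The 8 listed of 9 myeloid markers summed to at most 64.7 (median 26.2 in controls and 13.6 with TM), 5 endothelial markers to at most 19.9 and the 3 listed of 5 epithelial markers to at most 8.56. In the F1 set the same lists reached at most 21.9 (4 of 9 listed), 19.0 and 5.41 (2 of 5 listed), beside 12153 to 31708 for the fibroblast list. Lum was at most 3.41 there. The epithelial markers Epcam and Krt5 were listed in neither set, and the myeloid markers Ptprc, Adgre1, Itgam and Tyrobp had a lowest value of 0 in the founder set. Other myeloid markers were present in all founder libraries, with Csf1r at 1.71 to 9.53 and Lyz2 at 0.192 to 43.1. The part of depth and of these cells in the changes below was not tested. A control 1, A TM 2, NZO TM 3 and xWSB control 1 stood farthest from the other libraries of their group (a median distance over 0.4 on the log2 scale), and results are also given without these 4 where that moves them.

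The members spanned a wide range of levels. Per kb of exon, the median of the founder control means was highest for Hsp90ab1 (806), the constitutive cytosolic Hsp90, and Hspa8 (647), the constitutive Hsp70. Hspb1 followed at 293 and Hsp90aa1, the stress-inducible Hsp90, at 214. Hspa4 was at 73.0 and Dnajb1 at 27.8 per kb. Hsph1 (10.2) and Hsf1 (9.15) were lower, and the inducible Hsp70 genes Hspa1b (5.76) and Hspa1a (2.88) were lowest. For scale, the ER chaperones Hspa5 and Hsp90b1 stood at 217 and 249 per kb in the same cells, and with TM at 1555 and 849. The lengths are those of all annotated exons of a gene together (GENCODE M21), so genes with long or many isoforms, such as Hsph1 and Hsf1, come out low. Stretches of 100 bases that also occur in other genes were not taken off. They made up 56.5% of Hspa1a, 49.9% of Hspa1b, 44.0% of Hspb1, 38.0% of Hsp90aa1 and 28.5% of Hspa8. None were found in Hsf1, Hsph1 or Hsp90ab1. If reads from such stretches were lost, the former genes come out too low, so the order of the members is uncertain. In the F1 controls Hsp90ab1 (634 per kb) again led and Hspa1a (1.76 per kb) was again lowest.

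With TM, 3 of the 10 genes fell and 1 rose in the founder strains, averaged over strains. Hspa1b fell to 0.485 of control, Hspa1a to 0.554 and Hspb1 to 0.816, while Hsp90aa1 rose 1.29-fold. In the F1 crosses Hspa1a and Hspa1b fell again, to 0.620 and 0.622 of control, and Hsp90aa1 rose 1.32-fold. The other members were not called, and the ER counterparts rose by far more, Hspa5 7.08-fold, Hsp90b1 3.48-fold and Hyou1, an ER Hsp70 relative, 3.10-fold in the founder strains. These calls come from limma on log2(value + 0.1) at an adjusted p below 0.01, with p-values adjusted over all genes tested. Such calls were common, 21.9% of all founder genes fell and 20.5% rose (42.3% in all), and in the F1 set 18.7% fell and 16.9% rose (35.6% in all), so the counts of members are near the background. A fall of at least 1.5 fold was called for 5.41% of founder genes and 5.54% of F1 genes, and among the members for Hspa1a and Hspa1b in both sets. A rise of that size was called for 6.04% and 4.95% of genes and for no member (limma). The median change of the 10 members was -0.02 in the founder set and 0.02 in the F1 set, beside -0.04 and -0.04 over all genes. In bulk RNA, fewer cells with a transcript and less of it per cell cannot be told apart.

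**Figure D1:**
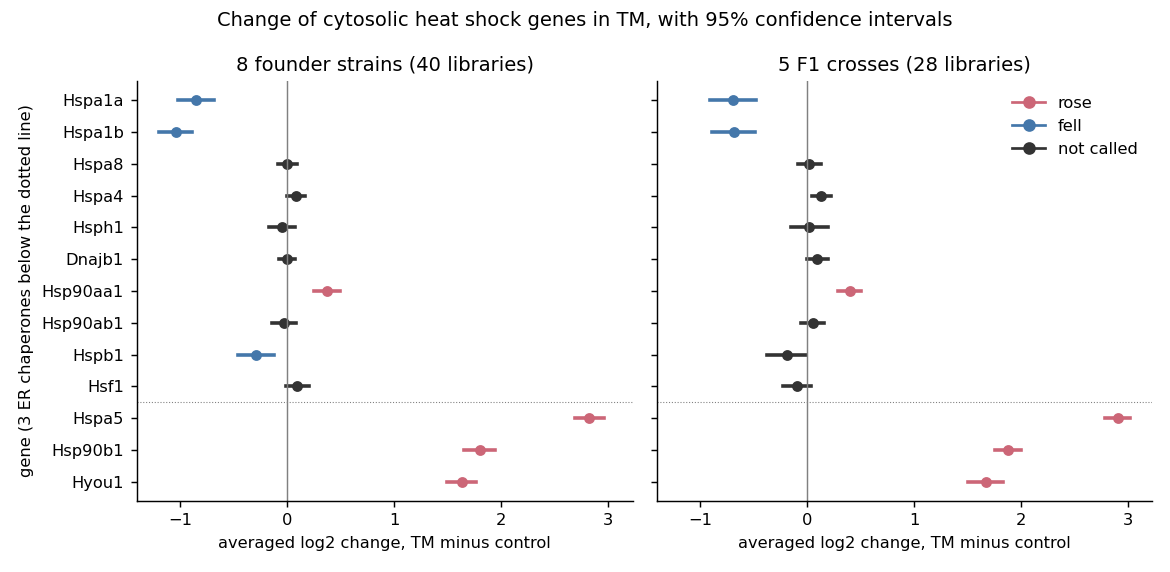
Averaged log2 change with TM of the 10 cytosolic heat shock genes and of 3 ER chaperones, with points for the estimate and lines for its 95% confidence interval, in the founder strains (left) and the F1 crosses (right). Hspa1a and Hspa1b lie left of 0 in both panels, at -0.85 and -1.04 on the left, Hsp90aa1 lies right of 0, and the ER chaperones lie at 1.63 or more.

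Hspa1a and Hspa1b encode the stress-inducible cytosolic Hsp70 and lie side by side on chromosome 17 (GRCm38, chr17:34969190-34972156, minus strand, and chr17:34956436-34959238, minus strand), each as a single exon. They are the hallmark targets of Hsf1. In 129, Hspa1b was 20.1 and 20.6 in the control libraries and 10.2, 9.81 and 9.55 with TM. The A control libraries had 36.0, 27.98 and 26.4 and the TM libraries 11.8, 12.3 and 18.1. For B6 the values were 15.7 and 13.98 without TM and 9.15 and 9.73 with it. Control and TM libraries did not overlap in any of these strains, and A control 1 was the highest library of the set. In CAST, Hspa1b was 17.0 and 16.5 in the control libraries and 6.39 and 7.41 with TM. The NOD control libraries had 9.75 and 15.6 and the TM libraries 5.37, 6.67 and 5.95. For NZO the values were 14.9 and 16.3 without TM and 7.02, 6.84 and 7.77 with it. Again every TM library lay below every control of its strain, although the NOD controls were far apart. In PWK, Hspa1b was 29.9, 24.9 and 25.1 in the control libraries and 9.93, 8.16 and 15.6 with TM. The WSB control libraries had 10.4 and 8.09 and the TM libraries 5.13, 4.56 and 5.25. PWK and A had the highest controls and WSB the lowest, and Hspa1b was lower with TM in 8 of 8 strains without overlap. The averaged log2 change was -1.04 ± 0.07 (SE, adjusted p = 8.58e-13), with a 95% interval of -1.20 to -0.89. Between strains it ran from -1.29 in PWK to -0.64 in B6.

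In the F1 crosses the fall of Hspa1b was smaller in its estimate. In x129, Hspa1b was 14.6, 12.4 and 12.8 in the control libraries and 7.08, 8.54 and 8.57 with TM. The xCAST control libraries had 15.2 and 11.5 and the TM libraries 6.46, 8.64 and 7.84. For xNOD the values were 9.13, 9.20 and 9.84 without TM and 5.25 and 7.32 with it. Here, too, the treatments did not overlap. In xNZO, Hspa1b was 11.7, 11.7 and 8.68 in the control libraries and 5.08, 5.15 and 9.54 with TM. The xWSB control libraries had 15.2, 17.6 and 13.05 and the TM libraries 8.31, 10.1 and 12.1. In xNZO, TM 3 was above the lowest control library, so the groups were apart in 4 of 5 crosses. The share of all genes apart in 4 or more crosses was not computed. Averaged over crosses, the log2 change was -0.69 ± 0.10 (SE, adjusted p = 4.45e-06), with a 95% interval of -0.89 to -0.48. The sets were normalized separately, and the difference between them was not tested.

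Hspa1a had lower values than Hspa1b in most libraries and the same direction throughout. In 129, Hspa1a was 9.18 and 9.25 in the control libraries and 4.69, 5.66 and 4.77 with TM. The A control libraries had 15.6, 12.7 and 12.4 and the TM libraries 5.85, 7.42 and 8.08. For B6 the values were 7.22 and 5.47 without TM and 4.43 and 4.13 with it. The TM libraries were below the controls in each of these strains. In CAST, Hspa1a was 5.39 and 4.70 in the control libraries and 1.70 and 3.24 with TM. The NOD control libraries had 9.23 and 11.04 and the TM libraries 4.31, 5.76 and 5.49. For NZO the values were 15.4 and 13.8 without TM and 6.20, 5.73 and 8.98 with it. CAST was lowest and NZO among the highest, and NZO TM 3 stood above the other NZO TM libraries. In PWK, Hspa1a was 8.52, 7.88 and 7.24 in the control libraries and 4.26, 4.43 and 4.95 with TM. The WSB control libraries had 9.18 and 5.59 and the TM libraries 4.42, 4.32 and 5.34. The spread of the WSB controls was wide, yet no TM library reached a control. The averaged log2 change was -0.85 ± 0.08 (SE, adjusted p = 3.89e-10), with a 95% interval of -1.02 to -0.69. The values rest on few reads, from 16 to 274 per founder library in which reads could be recovered.

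In x129, Hspa1a was 6.06, 4.54 and 3.60 in the control libraries and 2.95, 2.82 and 2.86 with TM. The xCAST control libraries had 4.92 and 5.53 and the TM libraries 2.66, 2.84 and 3.85. For xNOD the values were 4.32, 4.32 and 6.05 without TM and 3.05 and 3.24 with it. Each TM library was again below the controls. In xNZO, Hspa1a was 6.09, 8.39 and 5.98 in the control libraries and 3.43, 3.23 and 5.04 with TM. The xWSB control libraries had 12.2, 12.4 and 7.53 and the TM libraries 6.56, 6.05 and 7.502. In xWSB, the cross with the highest values, TM 3 and control 3 nearly met. The averaged log2 change in the F1 crosses was -0.69 ± 0.10 (SE, adjusted p = 9.55e-06), with a 95% interval of -0.91 to -0.47. Control and TM libraries were apart in 8 of 8 strains and 5 of 5 crosses for Hspa1a. Among all genes, 2.99% lay below control without overlap in every strain and 3.32% in every cross.

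**Figure D2:**
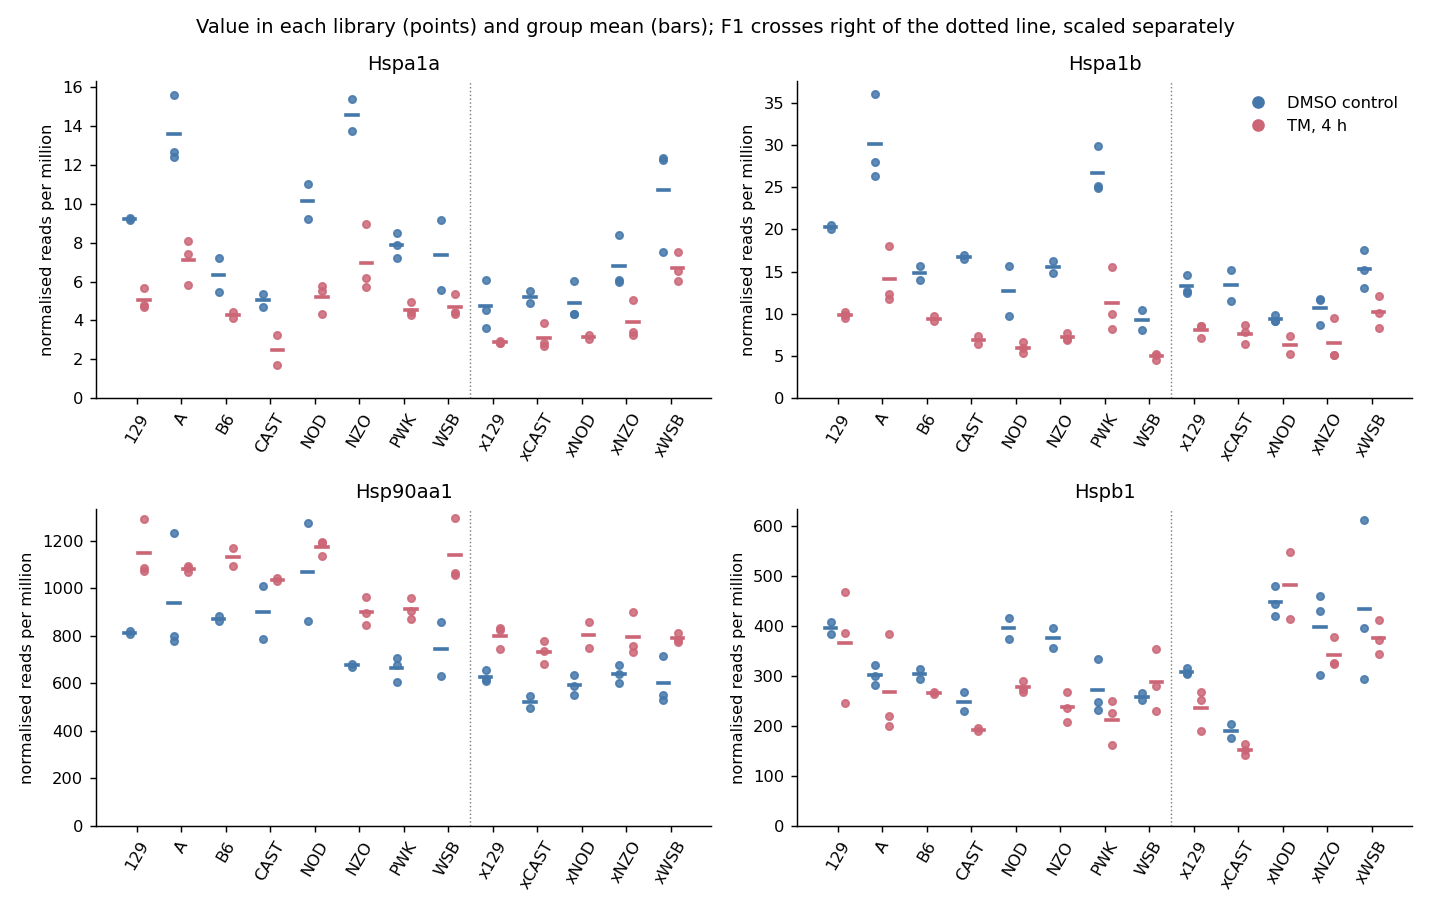
Value of Hspa1a, Hspa1b, Hsp90aa1 and Hspb1 in each library (points) with the group mean (bars), in normalised reads on the CPM scale by genotype, blue for DMSO controls and red for TM. The red points of Hspa1a and Hspa1b lie below the blue ones in every founder strain, those of Hsp90aa1 lie above in 6 of 8 strains and 5 of 5 crosses, and those of Hspb1 are mixed.

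Tested within each genotype, with a minimum of 1.5 fold, 5 falls and no rise were called among 130 tests of a member in a genotype (limma). Under the same rule edgeR on recovered reads, without PWK TM 2 and WSB TM 1, also called 5 falls and 0 rises. Over all genes and genotypes, 1.52% of tests gave a fall and 2.45% a rise under this rule (limma). At an unadjusted p below 0.05, 31 estimates of members were below 0 and 9 above (limma). The share of all genes at that looser threshold was not computed, so these 2 counts have no background. Hspa1b fell in 4 genotypes, by log2 values of -0.64 ± 0.14 in B6 (adjusted p = 0.00167), -1.27 ± 0.16 in CAST (adjusted p = 0.00157), -1.29 ± 0.19 in PWK (adjusted p = 0.000222) and -0.71 ± 0.13 in x129 (adjusted p = 0.00375) (limma). Hspa1a fell in 1, by -0.78 ± 0.15 in PWK (adjusted p = 0.00158), and in 0 without PWK control 1. The estimates for Hspa1b in A and NZO were between those of CAST and x129, -1.11 ± 0.24 in A (adjusted p = 0.0873) and -1.10 ± 0.16 in NZO (adjusted p = 0.0304), but did not pass. Few genes passed there at all, 0.00786% of all genes fell in A, 0.0078% in NZO and 0.00787% in 129. More fell in B6 (3.22%), PWK (4.3%), WSB (4.2%), NOD (0.165%) and CAST (0.478%). Among the crosses the share was 1.36% in x129, 1.2% in xCAST, 4.6% in xNOD, 0.152% in xNZO and 0.0161% in xWSB. With 1 fit over all libraries of a set there were 12 falls, 7 of Hspa1b and 5 of Hspa1a, and without the 4 libraries that stand apart there were 8, as also without NZO TM 3 alone. Without a variance trend only 1 fall was called. For none of the 10 members was a difference in the change between strains or between crosses called (limma F test of the interaction, 0 of 10 in both sets, lowest adjusted p = 1 and 0.809). At an unadjusted p below 0.05 there were 0 of 10 as well, also with edgeR. Interactions were rare, 0.174% of founder genes and 0.0547% of F1 genes, and a p that misses the threshold does not show that the strains changed alike.

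**Figure D3:**
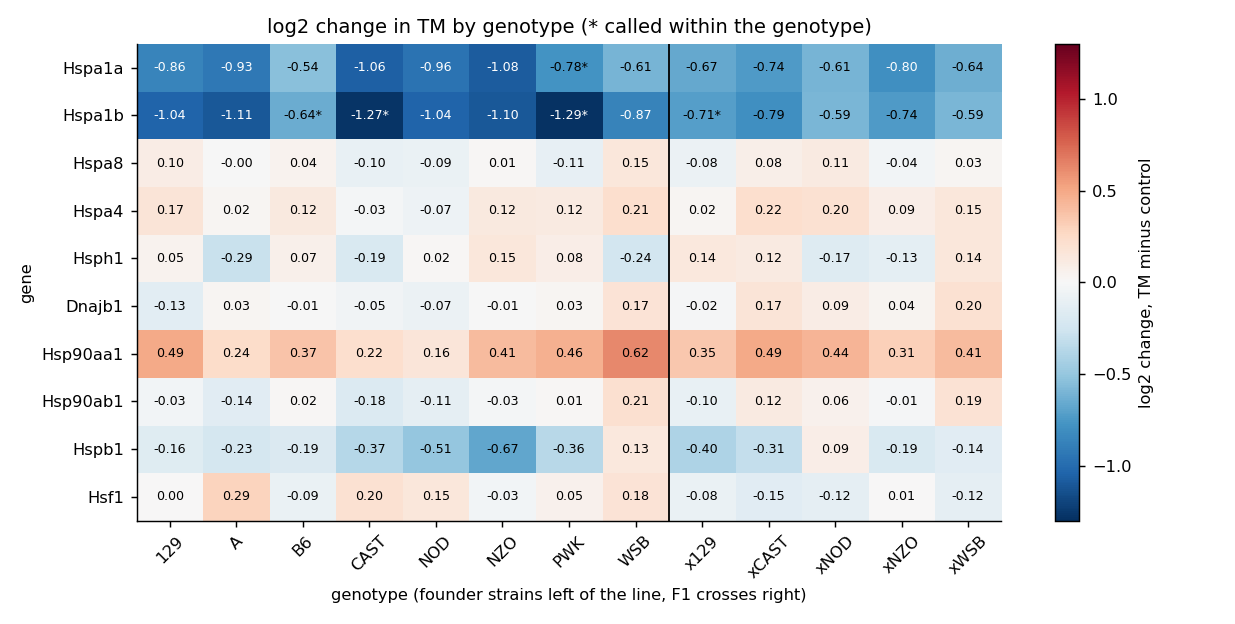
Log2 change with TM, as a colour and a number, of each of the 10 genes (vertical axis) in each genotype (horizontal axis, F1 crosses right of the line), with an asterisk where the change was called within the genotype. Hspa1a and Hspa1b are below 0 and Hsp90aa1 is above 0 in all 13 genotypes, and the other 7 genes have no such single colour.

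Reads of Hspa1a and Hspa1b are hard to assign. Of the 100-base windows of the Hspa1a transcript, the length of a read, 56.5% also occur in another gene, 47.1% in Hspa1b. For Hspa1b, 49.9% occur in Hspa1a. Gm20481, a gene on the opposite strand, overlaps Hspa1a, and without strand its reads cannot be told apart from those of Hspa1a. The values of either gene alone are thus uncertain. Summed into 1 gene, the pair changed by -0.99 on the log2 scale in the founder strains (limma, adjusted p = 7.90e-13) and -0.70 in the F1 crosses (adjusted p = 1.04e-06). In the F1 data a row for reads without a unique alignment held 7.13 to 12.5% of the total. The sum does not bring back reads of the pair that were set aside there. How such reads were treated in the founder set is not known.

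The ratio of Hspa1b to Hspa1a in a library is free of its scaling, and it differed by strain. It was 1.73 to 2.22 over the 129 libraries, 1.66 to 2.30 in A and 2.06 to 2.56 in B6. In CAST it was 2.29 to 3.75 and in PWK 1.84 to 3.51. It was lower in NOD (1.06 to 1.42), NZO (0.865 to 1.19) and WSB (0.983 to 1.45), so that no library of the last 3 strains reached the lowest library of the other 5. Control and TM libraries overlapped except in 129 and PWK, where TM was lower, in PWK with 3.16 to 3.51 in controls and 1.84 to 3.15 with TM. In the crosses the ratio was 1.396 to 1.92 in xNZO, 1.25 to 1.73 in xWSB and 1.62 to 2.26 in xNOD. It was 2.03 to 3.09 in xCAST and 2.40 to 3.54 in x129, where every library was above the highest 129 library. How many reads could be placed in either gene in each strain's genome was not tested, and the ratio is given without a test.

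**Figure D4:**
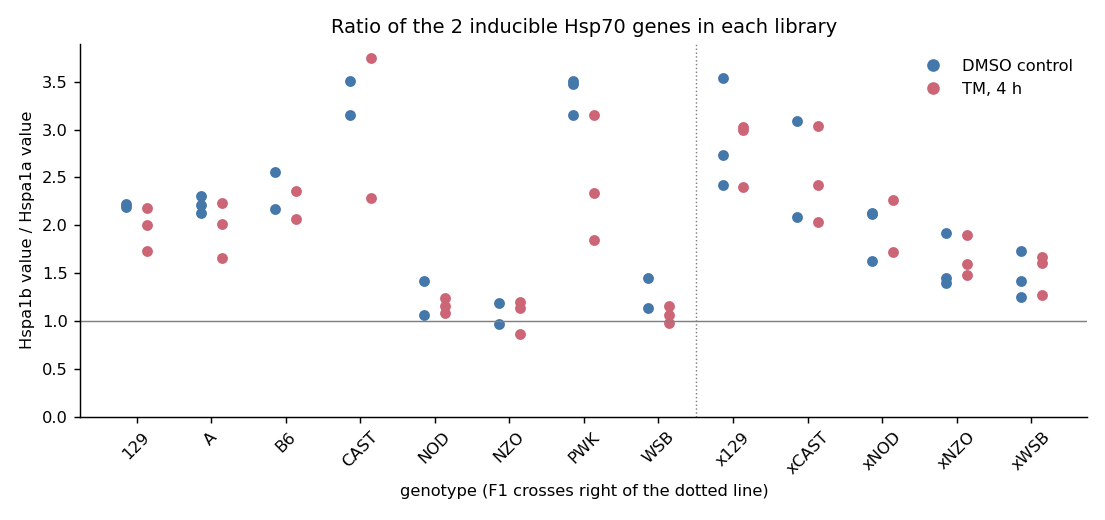
Ratio of the Hspa1b value to the Hspa1a value in each library (points), by genotype, blue for controls and red for TM, with a line at 1. NOD, NZO and WSB lie between 0.865 and 1.45, and the other founder strains lie above.

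Before any TM, 4 of the 10 members differed between founder strains (limma F test in control cells, background 35.8% of genes). They were Hspa1b (adjusted p = 4.34e-05), Dnajb1 (adjusted p = 0.000224), Hspa1a (adjusted p = 0.000233) and Hspb1 (adjusted p = 0.00296). Control means of Hspa1b ran from 9.26 in WSB to 30.1 in A, in the order WSB, NOD, B6, NZO, CAST, 129, PWK and A. Neighbours overlapped from WSB up to NZO and again for PWK and A, while NZO and CAST, CAST and 129, and 129 and PWK did not. Hspa1a means ran from 5.04 in CAST to 14.6 in NZO, in another order, CAST, B6, WSB, PWK, 129, NOD, A and NZO. Neighbours in it overlapped except for CAST and B6, PWK and 129, and NOD and A. Dnajb1, the J-domain partner of Hsp70, ran from 77.2 in PWK to 116 in 129, with PWK, WSB and B6 overlapping and the higher strains, NZO, CAST, NOD, A and 129, each apart from the next. Hspb1 ran from 248 in CAST to 396 in 129, with CAST, WSB, PWK, A and B6 overlapping from neighbour to neighbour, a gap, and then NZO, NOD and 129 overlapping likewise. Without 129 control 2 the adjusted p of Hspb1 was 0.0107, above the threshold. Without A control 1, Hsp90ab1 was called too (adjusted p = 0.00599).

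In the F1 controls 1 of 10 was called, Hspb1 (limma, adjusted p = 0.00871, background 21.4% of genes). Its control means ran from 189.9 in xCAST to 448 in xNOD. In both sets the genotype with CAST alleles had the lowest control mean of Hspb1. It was 248 ± 26.8 (SD, n = 2) in CAST and 189.9 ± 19.0 (SD, n = 2) in xCAST, although CAST overlapped WSB and PWK. WSB, with a mean of 258, was next above CAST, while xWSB, with 433, was next below xNOD. An effect of the alleles was not tested. The call in the crosses did not hold in 11 of 14 fits that left out a library, any of the x129 or xNOD controls, either xCAST control, xNZO control 1 or 2, or xWSB control 2, where the adjusted p was 0.013 to 0.0849. With edgeR on recovered reads Hspb1 was not called (adjusted p = 0.0121) and Hspa1a was (adjusted p = 0.00803), and limma with a pseudocount of 1 or without a variance trend called 0 of 10. In limma as first described Hspa1a (adjusted p = 0.0108) and Hspa1b (0.023) missed the threshold in the crosses, the former passing without x129 control 1, xNOD control 3 or xWSB control 3 (adjusted p = 0.00365 in the last case).

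The small heat shock protein Hspb1 (chr5:135887919-135889563, plus strand), known in the mouse as Hsp25, fell less in the founder strains. Values were 229 to 415 (median 306, n = 18) in the controls and 162 to 467 (median 257, n = 22) with TM, so the ranges overlapped widely. The averaged log2 change was -0.29 ± 0.08 (SE, adjusted p = 0.00305). In NZO, Hspb1 was 356 and 396 in the control libraries and 236, 208 and 267 with TM. The NOD control libraries had 375 and 415 and the TM libraries 290.4, 268 and 274. NZO and NOD had the lowest estimates, -0.67 and -0.51 in log2, and the treatments were apart there and in B6 and CAST. The share of all genes apart in as many strains was not computed. For 129 the values were 408 and 384 without TM and 467, 386 and 245 with it. In WSB, Hspb1 was 265 and 251 in the control libraries and 279, 353 and 230.3 with TM. In WSB the estimate was above 0 (0.13), and in 129, A and PWK control and TM libraries overlapped. In the F1 crosses Hspb1 was not called, -0.19 ± 0.09 (SE, adjusted p = 0.0832), and was lower with TM in 4 of 5 crosses. Its founder call was lost with edgeR on recovered reads, without PWK TM 2 and WSB TM 1 (adjusted p = 0.0106). Without A control 1, A TM 2 and NZO TM 3 it was -0.33 (limma, adjusted p = 0.000183). Of its 100-base windows, 44.0% occur in a pseudogene as well.

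Hsp90aa1 (chr12:110690605-110702728, minus strand), the inducible Hsp90, was the only member that rose in the averaged fits. In 129, Hsp90aa1 was 809.7 and 818 in the control libraries and 1292, 1086 and 1072 with TM. The B6 control libraries had 882 and 861 and the TM libraries 1093 and 1169. For NZO the values were 669 and 683 without TM and 895, 847 and 963 with it. In these strains every TM library lay above every control. In PWK, Hsp90aa1 was 607, 678 and 708 in the control libraries and 959, 871 and 904 with TM. The WSB control libraries had 632 and 857 and the TM libraries 1295, 1064 and 1058. For CAST the values were 1010.4 and 787 without TM and 1044 and 1029 with it. The same held here, narrowly in CAST. In A, Hsp90aa1 was 1234, 801 and 779.6 in the control libraries and 1067, 1084 and 1094 with TM. The NOD control libraries had 1275 and 863 and the TM libraries 1189, 1134 and 1195. A control 1 and NOD control 1 were above all TM libraries of their strains, so the treatments were apart in 6 of 8 strains. Among all genes, 4.12% were above control without overlap in all 8 strains, a stricter condition that Hsp90aa1 did not meet. The share of genes apart in 6 or more strains was not computed. Averaged over strains, the log2 change was 0.37 ± 0.06 (SE, adjusted p = 3.48e-06), with a 95% interval of 0.25 to 0.49. Without A control 1, A TM 2 and NZO TM 3 it was 0.39.

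The F1 crosses had a rise of 31.9% against 29.5% in the founder strains. In x129, Hsp90aa1 was 619, 609 and 655 in the control libraries and 824, 745 and 832 with TM. The xCAST control libraries had 495 and 547 and the TM libraries 682, 779 and 735. For xNOD the values were 637, 589.95 and 549 without TM and 748 and 858 with it. No TM library of these crosses overlapped the controls. In xNZO, Hsp90aa1 was 639.7, 603 and 677 in the control libraries and 758, 899 and 734 with TM. The xWSB control libraries had 531, 552 and 716 and the TM libraries 775, 781 and 812. The averaged log2 change was 0.40 ± 0.05 (SE, adjusted p = 1.13e-06), with the treatments apart in 5 of 5 crosses (among all genes, 4.53% were above control without overlap in every cross). Within a genotype no rise reached 1.5 fold with an adjusted p below 0.01. With no minimum fold Hsp90aa1 was called in 2, 0.37 ± 0.07 in B6 (limma, adjusted p = 0.00077) and 0.46 ± 0.09 in PWK (adjusted p = 0.00184). The share of all genes called in these strains without the minimum was not computed. The Hsp90aa1 transcripts share 38.0% of their 100-base windows with other genes, mostly a pseudogene.

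The remaining 6 members were not called in either set. Hsp90ab1 (chr17:45567775-45573271, minus strand), the constitutive Hsp90, was 2173 to 3462 (median 2421, n = 18) in founder controls and 1999 to 2949 (median 2388, n = 22) with TM. Its averaged log2 change was -0.03 ± 0.06 (SE, adjusted p = 0.646), with a 95% interval of -0.14 to 0.08, and 0.05 ± 0.05 (SE, adjusted p = 0.416) in the F1 crosses. Its sister gene rose in both sets, and the founder intervals of the pair do not overlap, but the difference between the genes was not tested. The constitutive Hsp70 Hspa8 (chr9:40800984-40810087, plus strand), which hosts 3 snoRNA genes in its introns, was 2451 to 3289 (median 2794, n = 18) in founder controls and 2439.5 to 3207 (median 2803, n = 22) with TM. Its averaged change was 0.00 ± 0.04 (SE, adjusted p = 0.988) in the founder strains, with a 95% interval of -0.09 to 0.09, and 0.02 ± 0.05 (SE, adjusted p = 0.766) in the F1 crosses. The founder interval of Hspa8 does not overlap those of Hspa1a and Hspa1b, but the differences between the genes were not tested.

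The co-chaperones of Hsp70 among the members had small estimates. Dnajb1 (chr8:83608193-83612653, plus strand) was 74.8 to 119 (median 89.8, n = 18) in founder controls and 74.9 to 127 (median 90.6, n = 22) with TM. Its averaged log2 change was -0.01 ± 0.04 (SE, adjusted p = 0.915) in the founder strains and 0.10 ± 0.05 (SE, adjusted p = 0.0964) in the F1 crosses. Hspa4 (chr11:53259814-53300457, minus strand) was higher with TM in 6 of 8 strains and 5 of 5 crosses, at 0.08 ± 0.04 (SE, adjusted p = 0.0823) and 0.13 ± 0.04 (SE, adjusted p = 0.0159), short of the threshold. Without xNOD TM 1, xWSB control 3 or xWSB TM 1 it was called in the F1 set (log2 changes of 0.17, 0.15 and 0.15). Hsph1 (chr5:149614287-149636376, minus strand), the other Hsp110 gene, had -0.05 ± 0.06 (SE, adjusted p = 0.542) and 0.02 ± 0.08 (SE, adjusted p = 0.85), and its values reached from 54.5 in A TM 2 to 124 in A control 1, both among the libraries that stand apart. The transcript of Hsf1 (chr15:76477422-76501913, plus strand), whose protein is held inactive by chaperones until stress, was 44.9 to 74.2 (median 66.0, n = 18) in founder controls and 57.3 to 84.9 (median 68.1, n = 22) with TM. Its averaged change was 0.09 ± 0.05 (SE, adjusted p = 0.137) in the founder strains and -0.09 ± 0.06 (SE, adjusted p = 0.236) in the F1 crosses, with estimates of opposite sign.

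The partner lists held called genes in both directions, at shares to be read beside those of all genes (20.5% rose and 21.9% fell in the founder set, 16.9% and 18.7% in the F1 set). Of the Hsp90 co-chaperones, 4 rose and 2 fell of 14 tested in the founder strains and 5 rose and 2 fell of 14 in the F1 crosses, with median log2 changes of 0.00 and 0.06. The largest changes called in both sets were rises of Chordc1, a zinc-binding Hsp90 partner, by 0.71 and 0.66 in founder and F1 cells, of Ppid, the immunophilin cyclophilin 40, by 0.63 and 0.62, and of Ptges3, the p23 co-chaperone, by 0.39 and 0.41 (limma, adjusted p of at most 0.000271). Chordc1 was 26.9 to 69.7 (median 37.7, n = 18) in founder controls and 44.0 to 85.7 (median 62.5, n = 22) with TM. Of the Hsp70 partners, 3 rose and 3 fell of 17 in the founder strains and 7 rose and 3 fell of 17 in the F1 crosses, with medians of 0.08 and 0.10. Hspa2, an Hsp70 best known from the testis, fell, with log2 changes of -0.46 and -0.37, while Bag5, a BAG-domain regulator of Hsp70, rose by 0.41 and 0.61 and the J-domain protein Dnaja2 by 0.27 and 0.32. The other genes of the list that fell in both sets, named after their values were seen, were the BAG-domain proteins Bag2 (-0.23 and -0.23) and Bag3 (-0.24 and -0.31). Hspa14 was not listed.

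The other 5 small heat shock proteins tested had estimates below 0 in both averaged fits. Beside backgrounds of 21.9% and 18.7% of all genes that fell, 3 of the 5 fell in the founder strains and 2 in the F1 crosses, with medians of -0.31 and -0.31. Hspb6 (Hsp20) fell in both, with log2 changes of -0.43 and -0.70. The TRiC complex, a ring that folds actin and tubulin, had 5 of 8 subunits rise in each set, the same 5, and none fall (among all genes 20.5% rose in the founder and 16.9% in the F1 set), with medians of 0.16 and 0.17. Cct4 (0.33 and 0.31), Cct8 (0.23 and 0.25) and Cct2 (0.18 and 0.23) had the largest changes. Of 3 tested genes beside Hsf1 in its family and its regulators, Hsf2, another heat shock factor, rose in the founder strains (0.31, adjusted p = 5.93e-05) but not in the crosses (0.18, adjusted p = 0.0318, limma), with the difference not tested, and Hsf4 and Hsbp1 were not called. Hsf5 and Hspb3 were not listed. All 7 ER chaperones rose in both sets, with medians of 1.80 and 1.88, with the highest values for Sdf2l1 (3.15 and 3.32), the J-domain protein Dnajb9 (2.88 and 2.64) and Hspa5 (2.82 and 2.90).

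**Figure D5:**
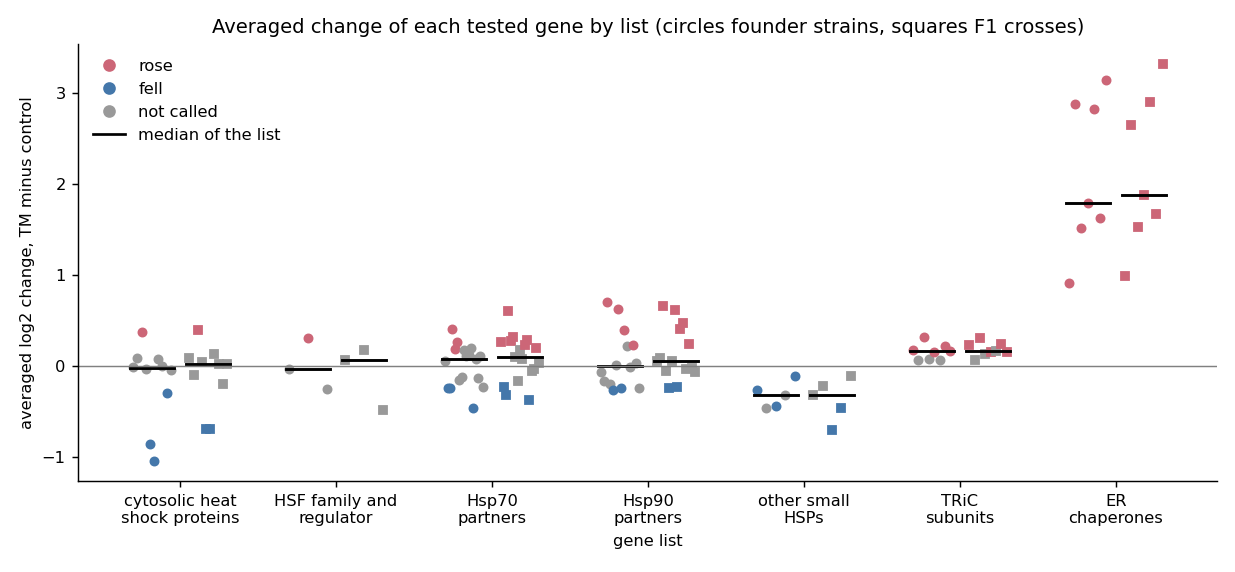
Averaged log2 change with TM (vertical axis) of each tested gene in 7 lists (horizontal axis), circles for founder strains and squares for F1 crosses, coloured by whether the gene rose, fell or was not called, with a bar at the list's median. The cytosolic lists lie between -1.04 and 0.71, while the ER chaperones reach from 0.92 to 3.32.

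Hspa1b had both the largest averaged founder change and the widest range of control means among the members (1.69 on the log2 scale). Over the 40 founder libraries, the genes whose log2 values followed it most closely of all those tested were Ror2 (Pearson r = 0.852), Mmp14 (Pearson r = 0.840) and Ap1ar (Pearson r = 0.840). The libraries share strain, treatment and depth, so these values are a description without a test.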

How the data were processed

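RNA from MEFs of 8 founder strains and 5 F1 crosses, grown for 4 h with DMSO or TM, was sequenced as single-end reads of 100 bases. Per the methods and the submitters' processing notes, the authors trimmed reads (Trimmomatic) and aligned them to strain-specific genomes (GRCm38, mm10) with TopHat 1.4.1. They normalized by TMM in edgeR, removed outlying libraries by principal components and normalized again. A library was removed if it did not cluster with its treatment within its strain. The kept libraries were thus chosen partly for separation by treatment, which can favour groups without overlap and narrow the spread behind p-values. The deposited values are a signal that the authors name FPKM but that is not divided by gene length: reads scaled by the TMM-adjusted library size, on the scale of CPM. Founder and F1 sets were normalized separately. Whole reads were recovered for 66 of 68 libraries (100% of values within 0.01 reads of a whole number), not for PWK TM 2 and WSB TM 1. From the F1 data 3 rows that name no gene, holding 15.5 to 24.1% of the total, were left out.

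Genes that reached 0.5 in 2 or more libraries were tested on log2(value + 0.1) with limma 3.58.1 (R 4.3.3), trended variances and Benjamini-Hochberg adjustment over all genes tested, calling adjusted p below 0.01. Log2 changes are on this scale, which understates changes of low genes. Averaged changes and interactions came from 1 fit per set, and effects in control cells from a separate fit of the set's control libraries. Changes within a genotype came from a fit of its own libraries, with a minimum of 1.5 fold. The founder set has 18 control libraries and the F1 set 14. Named were all 10 members and, of each other list, up to 3 genes with the largest averaged founder change among those called alike in both sets. The members and lists were chosen with earlier results of these data known. Alternatives were edgeR 4.0.16 on recovered reads, another pseudocount, scaling, filter, variance model or threshold, a replicate block, summed Hspa1a and Hspa1b, and leaving out libraries. Deviations from the group means of same-numbered control and TM libraries were compared, and in xWSB they were correlated in each of 3 pairs (0.259, 0.161 and 0.121), a pairing read from the data and not from the labels. Scripts were tested on simulated data. The depth is given with the data. Promoter sequences came from RefSeq and exons from GENCODE M21, both GRCm38.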

Additional observations from a re-analysis of the deposited data

How the results depend on the processing

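In both averaged fits the falls of Hspa1a and Hspa1b kept their direction and their call under every alternative run, and so did the rise of Hsp90aa1 except with a minimum of 1.5 fold, which left 0 rises in each set. Without any 1 library the change of Hspa1b stayed between -1.087 and -1.002 in the founder strains and between -0.75 and -0.64 in the F1 crosses. The founder fall of Hspb1 was lost with edgeR (adjusted p = 0.0106), with the replicate block (adjusted p = 0.0247) and with a minimum of 1.5 fold. With Hspa1a and Hspa1b summed, 1 member fell in the F1 crosses.

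Counts within genotypes moved most. The number of falls was 1 without a variance trend, 8 without the libraries that stand apart (chosen after seeing the data), 12 in 1 fit over a set, 14 at an FDR of 5% and 19 with array weights, and leaving out 1 library gave 4 to 8 (8 without NZO TM 3). The number of rises was 1 in 1 fit over a set, 1 at an FDR of 5% and 2 with no minimum fold. In the F1 control cells 0 members differed with a pseudocount of 1 or without a trend, 2 with median-of-ratios scaling and 3 with array weights, and leaving out 1 library gave 0 to 2. In founder control cells it gave 3 to 5. The count of rises in the F1 crosses was then 1 to 2. For these counts the cause was not tested, and the shares of all genes under the same alternatives were not computed.

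Estimates near 0 that were not called changed sign. Founder Hspa8 was -0.0115 with median-of-ratios scaling, -0.0294 with array weights and -0.0115 without the libraries that stand apart, and F1 Hspa8 was -0.0098 with array weights. Founder Dnajb1 was 0.0020 with edgeR. F1 Hsph1 was -0.011 without the libraries that stand apart. Leaving out 1 library gave -0.0132 to 0.0150 for founder Hspa8, -0.0215 to 0.0071 for founder Dnajb1 and -0.0490 to 0.0913 for F1 Hsph1.

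Over all genotypes 7 of 29 same-numbered pairs had correlated deviations over 0.1 (median 0.0204, beside -0.0188 in 60 other pairs). Differently numbered pairs exceeded 0.1 as well, up to 0.458 for A control 3 and A TM 1, beside at most 0.312 in same-numbered pairs. The numbers were taken to pair libraries in xWSB alone, where each of 3 pairs was over 0.1, although xWSB control 2 correlated more with TM 3 (0.255). In NZO each same-numbered pair was over 0.1 as well (0.195 and 0.223), but NZO has fewer pairs and was not taken as paired. In xWSB the block changed no member's call. With the number as a replicate block, founder Hsp90ab1 was 0.0047 and Dnajb1 0.0041, and 6 falls were called within genotypes. They were those of Hspa1a and Hspa1b in 129, NOD and PWK. The fall of Hspa1b in x129 was then not called (limma, adjusted p = 0.0153). The block could not be fitted within B6 or CAST, which left no residual degrees of freedom. Of the falls called without the block, only those in PWK were thus called with it. Of the F1 effects in control cells, edgeR called Hspa1a (adjusted p = 0.00803) and not Hspb1 (0.0121). Depth limits Hspa1a most, with 16 to 274 reads per founder library, and groups of 2 or 3 cultures of a single pool limit all tests within a genotype.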
